A study of Mus musculus with 10 samples.

Results

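The genes described are 45 mouse genes of the mitotic spindle, the kinetochore and the G2/M cyclins, taken by mouse symbol from a list of genes with known functions in mitosis. This list and the others used below were chosen with earlier results of these data known, so that comparisons with all genes are descriptive. They make up 45 of the 34932 genes in the deposited files and 45 of the 11781 genes with enough counts to be tested, so that none of the 45 was lost to the filter on low counts. By role they comprise 6 genes for the cyclins, CDK1 and the anaphase-promoting complex, 4 for the inner kinetochore, 8 for the outer kinetochore, 5 for the spindle checkpoint, 7 for the chromosomal passenger complex and sister chromatid cohesion, 7 for spindle assembly, 6 for kinesins and cytokinesis, and 2 for chromosome structure and proliferation (Top2a and Mki67).

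Entry into mitosis is driven by CDK1 bound to A- and B-type cyclins, and exit from it by the anaphase-promoting complex (APC/C). The APC/C marks the cyclins and securin, the inhibitor of separase, for destruction. Between these steps, kinetochores assembled on CENP-A nucleosomes attach chromosomes to spindle microtubules, and the spindle checkpoint holds the APC/C back until all are attached. Most of these genes are transcribed late in the cell cycle and are nearly silent in resting T cells, so that their RNA is commonly read as a sign of division.

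RNA was sequenced from transferred T cells recovered from B16-F10 melanomas, 5 libraries labelled MIT-BATF and 5 labelled MIT-Empty, each described as the cells of a separate mouse. Donor cells were Thy1.2+ CD8+ T cells of Pmel mice, whose transgenic receptor recognises the melanoma antigen gp100, activated with gp100 peptide and IL-2 for 24 h. They were then transduced with the MSCV-IRES-Thy1.1 (MIT) retrovirus, which carried the mouse BATF reading frame in the MIT-BATF group and no insert in the MIT-Empty group; all cells of both groups were thus activated, transduced and marked by Thy1.1, and BATF was placed under the viral promoter. Cells of both groups were afterwards cultured with IL-2, IL-7 and IL-15 before transfer. Recipients were tumor-bearing CD45.1 mice of 8 to 12 weeks of age, which keep their own T cells. On day 7 after transfer of Thy1.1+ cells, 2000 live Thy1.1+ cells were sorted per mouse for SMART-Seq2 libraries.

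The 5 MIT-BATF libraries held 10702908 to 34102346 counts (median 20971113) and the 5 MIT-Empty libraries 6534648 to 21355922 (median 12239636). Several features of the libraries bear on every value given here. Batf itself was not higher in the libraries labelled MIT-BATF, at 12.4, 22.6, 23.5, 24.8 and 26.5 CPM (counts relative to the TMM-scaled library size), than in those labelled MIT-Empty, at 13.5, 19.9, 36.8, 24.9 and 50.8 CPM, with a log2 fold change of -0.41 and an edgeR adjusted p of 0.522, so that the directions below rest on the labels. Whether the vector's transcript was among the sequences quantified was not determined. The 305 quantified sequences that matched no gene held 0.0617% to 0.089% of the counts of a library. In both groups the counts of replicate 4 lay within those of replicate 2, and the counts of replicate 5 within those of replicate 3, exceeding them in only 0.238% to 0.57% of genes, against 2.78% in the nearest other pair of libraries. The libraries of each such pair are not independent samples, and the calls on the 45 genes are therefore given for the counts as deposited and again after the contained counts were subtracted from the larger library (shared reads counted once). Levels, sums by role and per-gene statistics are from the counts as deposited unless stated, as is each statement that a gene fell, rose or passed. That fit treats the 5 libraries of a group as independent, so that its SEs, intervals and p-values, and the SDs, can be too small. The 9 CD8+ T cell markers were present in all libraries, summing to 3276 to 5510 CPM in MIT-BATF, against 3750 to 5996 CPM in MIT-Empty, and none of the 9 passed the test.

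Mitotic RNA was lower in the libraries labelled MIT-BATF. With the counts as deposited, 17 of the 45 genes passed edgeR's quasi-likelihood test at a Benjamini-Hochberg adjusted p under 0.05 over the 11781 genes tested, all 17 lower in MIT-BATF and 0 higher. Over all genes tested, 2.43% were lower in MIT-BATF and 2.16% were higher. The log2 fold change was negative for 43 of the 45, with a median of -0.68 (a ratio of 0.623), beside a median of 0.01 over all genes tested. In 14 of the 45 the 5 MIT-BATF values all lay below the 5 MIT-Empty values, against 3.17% of all genes tested, and in 0 of the 45 above them. DESeq2 called 24 of the 45 lower, against 4.07% of all genes, and 0 higher.

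**Figure D1:**
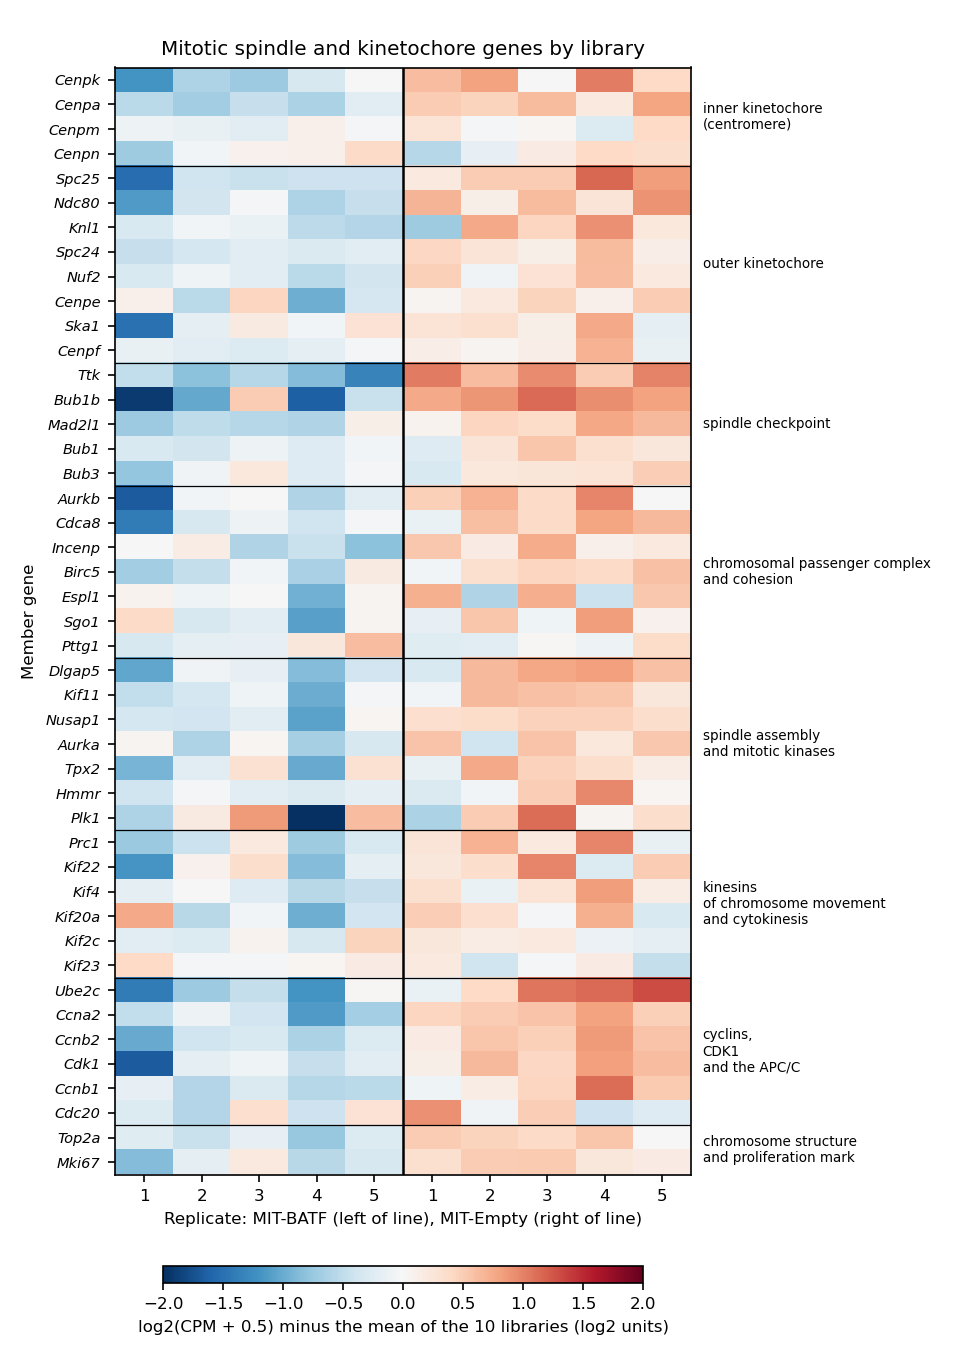
Each row is 1 of the 45 genes, ordered by role and fold change, and each column 1 library, with the 5 MIT-BATF libraries left of the line and the 5 MIT-Empty libraries right of it; color gives log2(CPM + 0.5) minus the mean of the 10 libraries. Most rows are blue (lower) in MIT-BATF and red (higher) in MIT-Empty, while Pttg1, Kif23, Kif2c and Cenpn have no such split.

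With shared reads counted once, 4 of the 45 passed the edgeR test (Cenpa, Ttk, Ccnb2 and Ube2c), against 0.683% of 11129 genes lower and 0.575% higher in MIT-BATF. The 4 were all among the 17. On GRCm38 (GENCODE vM21), Cenpa (ENSMUSG00000029177.9) lies at chr5:30666777-30674830 on the plus strand and Ttk (ENSMUSG00000038379.15) at chr9:83834689-83872389 on the plus strand. Ccnb2 (ENSMUSG00000032218.7) lies at chr9:70407692-70421547 on the minus strand and Ube2c (ENSMUSG00000001403.13) at chr2:164769898-164778822 on the plus strand, where its exons overlap the opposite-strand gene Tnnc2, itself at a mean of 0.00695 CPM. The median log2 fold change was then -0.63, the estimate was negative for 44 of the 45, and the 95% interval lay wholly below 0 for 24 of the 45, against 29 of the 45 with the counts as deposited. Such an interval is the same as an unadjusted p under 0.05, and the share of all genes at that threshold is not given. Counts at an unadjusted p, here and below, therefore cannot be set against a background. In this fit DESeq2 called 9 of the 45 lower, against 1.31% of genes, and in 9 of the 45 the groups did not overlap with MIT-BATF lower, against 1.56% of genes. When instead the contained libraries were left out, 3 of the 45 passed (Cenpa, Cenpk and Ttk), against 0.479% of genes lower in MIT-BATF. When the containing libraries were left out, 0 of the 45 passed edgeR's test, against 0.0725% of all genes that passed as lower in MIT-BATF. In that last fit 25 of the 45 had an unadjusted p under 0.05, all lower in MIT-BATF, again with no background share beside them.

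**Figure D2:**
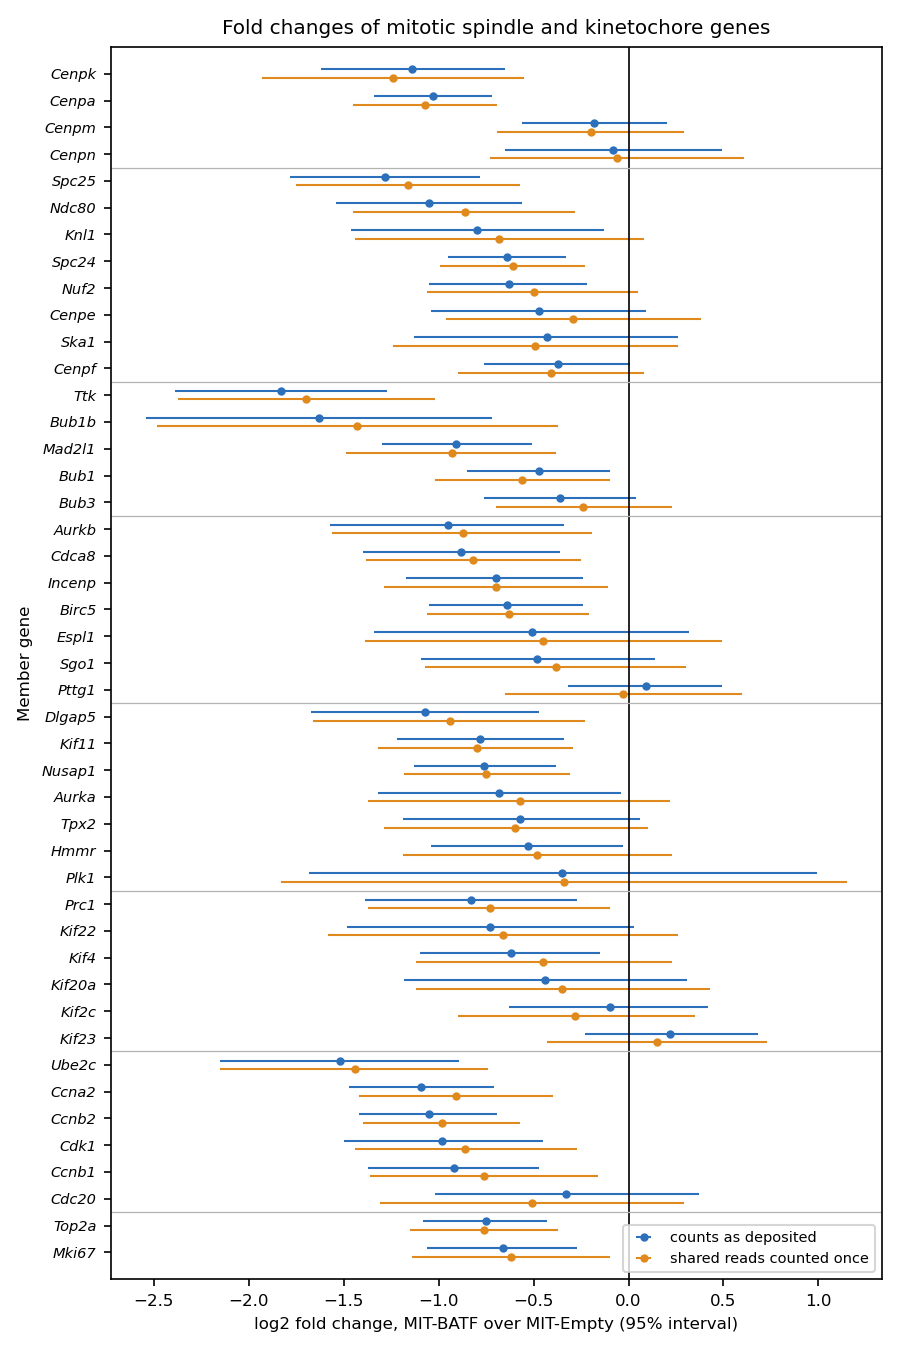
Points give the edgeR log2 fold change of each gene, MIT-BATF over MIT-Empty, and bars its 95% interval, for the counts as deposited (blue) and with shared reads counted once (orange). Both estimates are negative for 43 of the 45 genes; Kif23 is positive in both, and Pttg1 is at 0.09 and -0.03.

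The cyclins, CDK1 and the APC/C genes had the lowest ratio of summed levels of the 8 roles. Their summed CPM was 109 to 179 (median 158) in MIT-BATF and 232 to 410 (median 348) in MIT-Empty, a ratio of means of 0.44 with no overlap. Of the 6 genes, 5 fell in MIT-BATF, and Cdc20, the activator of the APC/C at metaphase, did not pass (log2 fold change -0.33, edgeR adjusted p = 0.664).

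Ube2c encodes the ubiquitin-conjugating enzyme that works with the APC/C, and had the lowest ratio of the 6. It was at 26.2, 42.2, 50.3, 30.4 and 70.9 CPM in MIT-BATF, and at 64, 92.5, 148, 154 and 173 CPM in MIT-Empty. The groups overlapped only through MIT-BATF replicate 5, which lay above MIT-Empty replicate 1. Its log2 fold change was -1.52 (SE 0.30, edgeR adjusted p = 0.00893), and it passed in 20 of 22 alternative settings (adjusted p from 1.33e-05 to 0.192). The fits in which it did not pass were those without the contained and without the containing libraries. Most of the 22 settings enter libraries that share counts as independent, so that the number passed cannot show stability to that sharing.

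Ccnb2 encodes cyclin B2, a partner of CDK1. It was at 20.5, 31.3, 33.4, 26.5 and 34.2 CPM in MIT-BATF and at 46.5, 61.4, 58.2, 75.5 and 61.6 CPM in MIT-Empty, so that the groups did not overlap. The log2 fold change was -1.05 (SE 0.17, edgeR adjusted p = 0.00297), and it too passed in 20 of 22 alternative settings (adjusted p from 1.31e-06 to 0.13).

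Ccna2 (cyclin A2, which acts from S phase to early mitosis) was at 31.3, 41.3, 33.7, 19.9 and 27.5 CPM in MIT-BATF and at 59.8, 62.9, 66.2, 77.4 and 62.1 CPM in MIT-Empty. Each MIT-BATF value lay below each MIT-Empty value, with a log2 fold change of -1.09 (SE 0.18, edgeR adjusted p = 0.00292). Exons of Ccna2 overlap those of Exosc9 on the opposite strand, which averaged 39.6 CPM, and the protocol does not mark strand, so that reads in the overlap cannot be told apart. The same holds for Cdc20 with Elovl1 (mean 24.2 CPM), Kif4 with Pdzd11 (mean 29.7 CPM), Cenpk with Ppwd1 (mean 8.05 CPM), Kif20a with Cdc23 (mean 7.8 CPM) and Nusap1 with Oip5 (mean 7.61 CPM).

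Cdk1, the mitotic kinase itself, was at 9.66, 28.1, 29.8, 23 and 27.1 CPM in MIT-BATF and at 34.5, 50.2, 42.5, 56.6 and 49 CPM in MIT-Empty. The groups did not overlap, and MIT-BATF replicate 1 was the lowest library by a wide margin (log2 fold change -0.98, SE 0.24, edgeR adjusted p = 0.0343). Ccnb1, the gene of cyclin B1, was at 17.4, 12.8, 15.8, 13 and 13.3 CPM in MIT-BATF and at 18.2, 21.7, 26.3, 43 and 28.1 CPM in MIT-Empty. Its groups did not overlap either, although the highest MIT-BATF library and the lowest MIT-Empty library were close (log2 fold change -0.92, SE 0.21, edgeR adjusted p = 0.0216). With shared reads counted once, Ccnb2 and Ube2c passed the edgeR test, and Ccna2, Cdk1 and Ccnb1 did not.

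**Figure D3:**
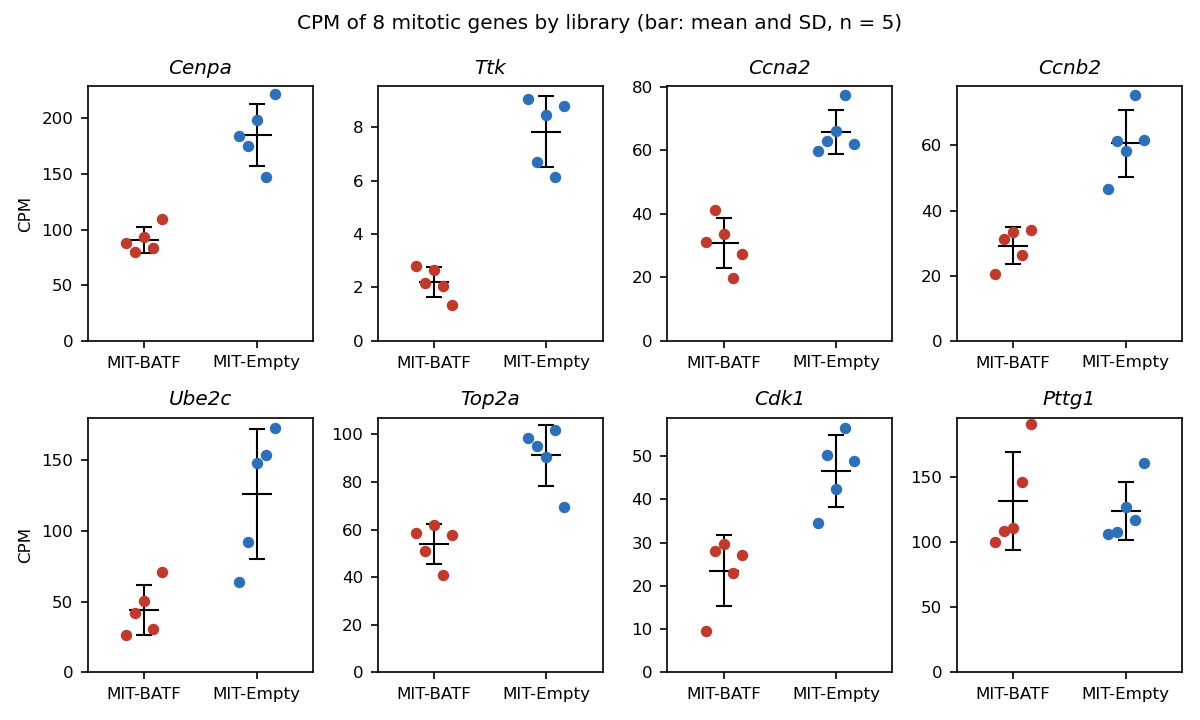
CPM of 8 genes in each library (points), with the mean and SD over the 5 libraries of each group, MIT-BATF left and MIT-Empty right; replicates 4 and 5 share counts with replicates 2 and 3. MIT-BATF lies below MIT-Empty without overlap for Cenpa, Ttk, Ccna2, Ccnb2, Top2a and Cdk1, overlaps at 1 library for Ube2c, and covers the MIT-Empty range for Pttg1.

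The inner kinetochore sits on centromeric chromatin throughout the cell cycle. Its 4 genes summed to 117 to 163 CPM in MIT-BATF, against 234 to 290 CPM in MIT-Empty, a ratio of 0.513 with no overlap, most of it from Cenpa. Cenpa encodes the histone H3 variant that marks the centromere, and had the second highest level per length of the 45 genes, with a mean of 93.2 TPM (transcript abundance corrected for length) over the 10 libraries. It was at 88.3, 79.7, 93.2, 83.2 and 110 CPM in MIT-BATF and at 184, 175, 199, 147 and 222 CPM in MIT-Empty. Each MIT-BATF library lay below each MIT-Empty library, and the log2 fold change was -1.03 (95% interval -1.34 to -0.72, SE 0.15, edgeR adjusted p = 0.00123). Cenpa passed in 21 of 22 alternative settings, with adjusted p from 1.65e-09 to 0.178, the highest being the fit without the containing libraries.

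Cenpk encodes a subunit of the CENP-H/I/K group that links CENP-A chromatin to the outer kinetochore. It was at 14.4, 21.8, 20.2, 26.8 and 33.7 CPM in MIT-BATF and at 51.7, 58.8, 33.8, 68.7 and 44.5 CPM in MIT-Empty. The groups met at 33.7 and 33.8 CPM without overlapping, and the log2 fold change was -1.14 (SE 0.23, edgeR adjusted p = 0.0108). Cenpk did not pass in the fit that counts shared reads once, and was highest in MIT-Empty replicate 4, the library richest in melanocyte RNA, and in replicate 2, which contains its counts; without both its log2 fold change was -0.88 with an edgeR adjusted p of 0.107. Cenpm and Cenpn, which encode other inner kinetochore subunits, had log2 fold changes of -0.18 and -0.08 and did not pass.

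The outer kinetochore, which assembles for mitosis and binds microtubules through the NDC80 complex, summed to 59.7 to 83.1 CPM in MIT-BATF, against 111 to 152 CPM in MIT-Empty, a ratio of 0.587 with no overlap. Of its 8 genes 3 fell, and these were 3 of the 4 subunits of the NDC80 complex. Spc25 was at 5.88, 13.5, 13, 13.4 and 13.3 CPM in MIT-BATF and at 20.7, 25.7, 25.8, 40.2 and 32.3 CPM in MIT-Empty. The groups were well apart, and 4 of the MIT-BATF libraries lay within 1 CPM of each other (log2 fold change -1.28, SE 0.23, edgeR adjusted p = 0.0058). Ndc80, the microtubule-binding subunit, was at 4.92, 8.68, 11.2, 7.24 and 8.14 CPM in MIT-BATF and at 18.5, 12.3, 17.8, 13.7 and 21.7 CPM in MIT-Empty, again without overlap (log2 fold change -1.05, SE 0.23, edgeR adjusted p = 0.0173).

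Spc24, the partner of Spc25 at the kinetochore end of the complex, was at 15.8, 17.1, 19, 17.9 and 18.9 CPM in MIT-BATF and at 29.5, 26.4, 23.9, 34.4 and 24.3 CPM in MIT-Empty. It had the smallest change of the 3 and no overlap (log2 fold change -0.64, SE 0.15, edgeR adjusted p = 0.0221). The remaining NDC80 subunit, Nuf2, had a log2 fold change of -0.63 with an edgeR adjusted p of 0.0826, and its groups did not overlap. The other 4 genes (Knl1, the scaffold of the outer kinetochore; Ska1, a microtubule coupler; Cenpe, a kinetochore motor; and Cenpf) ranged from -0.80 for Knl1 to -0.37 for Cenpf and did not pass. None of the 8 passed the edgeR test with shared reads counted once, where 3 had an unadjusted p under 0.05 and DESeq2 called 1, Spc25.

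The 5 spindle checkpoint genes summed to 114 to 192 CPM in MIT-BATF, against 187 to 284 CPM in MIT-Empty, with overlap (ratio 0.612), and 3 of the 5 fell. Ttk, the gene of the kinase MPS1 that starts checkpoint signalling, had the most negative fold change of the 45 genes. It was at 2.81, 2.15, 2.64, 2.06 and 1.35 CPM in MIT-BATF and at 9.06, 6.7, 8.47, 6.14 and 8.79 CPM in MIT-Empty. The highest MIT-BATF value lay far below the lowest MIT-Empty value, and the log2 fold change was -1.83 (95% interval -2.39 to -1.27, SE 0.26, edgeR adjusted p = 0.00123). Ttk passed in 21 of 22 alternative settings (adjusted p from 3.14e-09 to 0.135), and did not pass without the containing libraries.

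Mad2l1 encodes MAD2, the checkpoint protein that binds and restrains CDC20. It was at 57.1, 66.4, 64.1, 62.7 and 103 CPM in MIT-BATF and at 99.8, 128, 123, 163 and 149 CPM in MIT-Empty, with MIT-BATF replicate 5 just above the lowest MIT-Empty library (log2 fold change -0.91, SE 0.18, edgeR adjusted p = 0.0114). Bub1b, the gene of the checkpoint protein BUBR1, passed as well, at a log2 fold change of -1.63 (SE 0.43, edgeR adjusted p = 0.0418), on levels of 0.878 to 6.88 CPM in MIT-BATF, against 8.33 to 10.9 CPM in MIT-Empty. That call depended on the setting: Bub1b passed in 8 of 22 alternative settings (adjusted p from 0.0027 to 0.381), and its log2 fold change was -2.27 without MIT-BATF replicate 3. Bub1, the kinase that recruits checkpoint proteins, and Bub3, the adaptor of both BUB proteins, were at -0.47 and -0.36 and did not pass. Ttk alone of the 5 passed the edgeR test with shared reads counted once.

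None of the 7 passenger complex and cohesion genes passed, with either treatment of the shared reads, although 4 were lower in MIT-BATF at an unadjusted p under 0.05 in each fit and DESeq2 called 4 and 0 of them. They summed to 173 to 303 CPM in MIT-BATF, against 226 to 315 CPM in MIT-Empty, with overlap (ratio 0.818). The passenger complex itself, which corrects faulty attachments, had log2 fold changes of -0.95 for Aurkb (the kinase), -0.88 for Cdca8 (borealin), -0.70 for Incenp (the scaffold) and -0.64 for Birc5 (survivin), with edgeR adjusted p of 0.079, 0.053, 0.0877 and 0.0671.

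Pttg1, the gene of securin, had the highest level per length of the 45 genes (mean 126 TPM over the 10 libraries). It was at 100, 109, 111, 146 and 191 CPM in MIT-BATF and at 106, 108, 127, 117 and 161 CPM in MIT-Empty. The MIT-BATF libraries included both the lowest and the highest value, and the log2 fold change was 0.09 (95% interval -0.32 to 0.49, edgeR adjusted p = 0.865). With shared reads counted once it was -0.03. Espl1, the gene of separase, which securin holds inactive, and Sgo1, the protector of centromeric cohesion, were at -0.51 and -0.48 and did not pass.

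The spindle assembly genes summed to 39 to 76.9 CPM in MIT-BATF, against 80.8 to 113 CPM in MIT-Empty, a ratio of 0.604 with no overlap, and 3 of the 7 fell. Nusap1, a protein that bundles spindle microtubules around chromosomes, was at 23.3, 22.9, 25.7, 14 and 30.8 CPM in MIT-BATF and at 38, 38.7, 41.6, 41.4 and 38.2 CPM in MIT-Empty. The MIT-Empty libraries were nearly level, and each lay above each MIT-BATF library (log2 fold change -0.76, SE 0.18, edgeR adjusted p = 0.0241). Dlgap5 (HURP, which stabilises kinetochore fibres) and Kif11 (the motor Eg5, which separates the spindle poles) fell with log2 fold changes of -1.07 and -0.78 and edgeR adjusted p of 0.0412 and 0.0442. Aurka and Plk1, kinases of centrosome maturation, were at -0.68 and -0.35, and Tpx2 and Hmmr, spindle assembly factors, at -0.57 and -0.53, and did not pass. Plk1 was sparse, at 0 to 4.29 CPM in MIT-BATF, against 1.22 to 5.28 CPM in MIT-Empty. None of the 7 passed edgeR with shared reads counted once, where 3 had an unadjusted p under 0.05 and DESeq2 called 0.

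Of the 6 kinesin and cytokinesis genes 0 passed edgeR's test, with 2 at an unadjusted p under 0.05 and 1 called by DESeq2. Their sums overlapped, at 26 to 38.8 CPM in MIT-BATF, against 35.6 to 56.2 CPM in MIT-Empty (ratio 0.74). Kif22, a chromosome arm motor with the highest level per length of the 6, was at 1.49, 4.26, 5.24, 1.96 and 3.45 CPM in MIT-BATF and at 4.78, 5.22, 8.31, 3.23 and 5.89 CPM in MIT-Empty. Its groups overlapped (log2 fold change -0.73, 95% interval -1.48 to 0.03, edgeR adjusted p = 0.293). Kif23, the motor of the central spindle, had the most positive estimate of the 45 genes: it was at 10.4, 7.54, 7.63, 7.93 and 8.73 CPM in MIT-BATF and at 8.94, 5.73, 7.53, 8.73 and 5.39 CPM in MIT-Empty. These values overlapped too, and the log2 fold change was 0.22 (95% interval -0.23 to 0.68, edgeR adjusted p = 0.646). Prc1, the bundler of the central spindle, Kif4, its partner, Kif20a, a cytokinesis motor, and Kif2c, a microtubule depolymerase, ranged from -0.83 for Prc1 to -0.10 for Kif2c and did not pass.

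Top2a encodes the topoisomerase that untangles sister chromatids, and was at 58.5, 50.8, 61.8, 41.1 and 57.5 CPM in MIT-BATF and at 98.6, 94.9, 90.6, 102 and 69.6 CPM in MIT-Empty. Each MIT-BATF library lay below each MIT-Empty library (log2 fold change -0.75, SE 0.15, edgeR adjusted p = 0.0111), and Top2a did not pass in the fit that counts shared reads once. Mki67, the gene of the proliferation marker Ki-67, was at a log2 fold change of -0.66 and an edgeR adjusted p of 0.0568. The 17 genes that passed were more abundant than the other 28, with a median of 9.48 TPM beside 1.98 TPM.

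The summed level of the 45 genes gives the difference library by library. It was 736, 871, 973, 795 and 1105 CPM in MIT-BATF (mean 896 ± 147, SD, n = 5) and 1275, 1439, 1536, 1663 and 1621 CPM in MIT-Empty (mean 1507 ± 155, SD, n = 5). The groups did not overlap, at a ratio of means of 0.595, and at 0.602 with shared reads counted once. In bulk RNA, fewer dividing cells and less mitotic RNA per dividing cell cannot be told apart.

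RNA of other cells differed between the groups as well. All 7 measured of 9 melanocyte markers were lower in MIT-BATF; the 9 summed to 17.5 to 31.7 CPM in MIT-BATF, and in MIT-Empty to 121, 605, 55.6, 1824 and 41.7 CPM, and at most 1 of the 9 was at 0 in any library. After shared reads were counted once, these sums were 18.7 to 34.1 CPM in MIT-BATF, and 130, 52.1, 73.8, 1972 and 44.8 CPM in MIT-Empty, so that replicate 4 alone of MIT-Empty was very high; 2 of the 6 then measured passed edgeR's test, 6 had an unadjusted p under 0.05 and DESeq2 called 0. The 13 macrophage markers summed to 25.5 to 84.6 CPM in MIT-BATF, against 43.8 to 291 CPM in MIT-Empty, with 4 of 11 measured lower in MIT-BATF and 2 to 3 at 0 in MIT-BATF replicates 1, 4 and 5. The 9 stromal markers summed to 8.11 to 14.2 CPM in MIT-BATF, against 16.1 to 109 CPM in MIT-Empty, with 1 of 2 measured lower in MIT-BATF. In the fit that counts shared reads once, 1 of 10 measured macrophage markers and 1 of 2 stromal markers passed. The part of these cells in the mitotic difference was not tested. Without MIT-Empty replicate 4 and replicate 2, which contains it, 7 of the 45 passed the edgeR test (Cenpa, Ndc80, Spc25, Ccnb2, Ccna2, Ube2c and Ttk), against 1.07% of genes lower in MIT-BATF, and the median log2 fold change was -0.64. MIT-BATF replicate 1 stood apart with a mitochondrial share of 33.2%, against 11.5% to 15.1% in the other MIT-BATF libraries and 15.5% to 23.1% in MIT-Empty. Without this replicate 16 of the 45 passed, against 3.39% of all genes lower in MIT-BATF. With all 10 libraries that share was 2.43%.

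**Figure D4:**
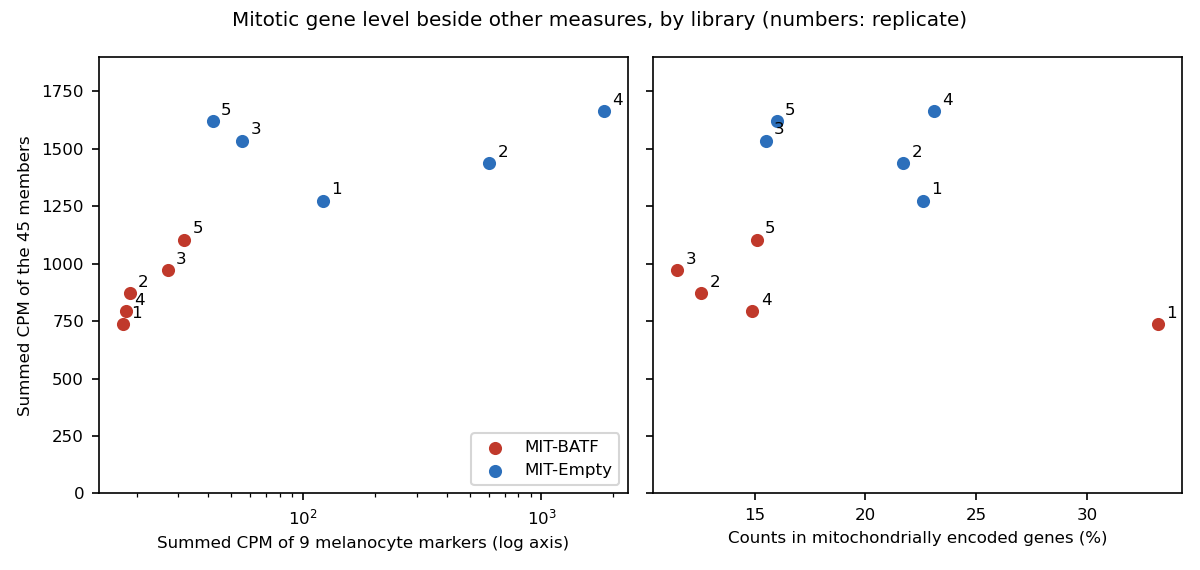
Summed CPM of the 45 genes in each library against the summed CPM of 9 melanocyte markers (left, log axis) and the percentage of counts in mitochondrial genes (right), red for MIT-BATF, blue for MIT-Empty. The MIT-BATF libraries sit at 736 to 1105 CPM and the MIT-Empty libraries at 1275 to 1663 CPM; the melanocyte sums are 17.5 to 31.7 CPM in MIT-BATF and 41.7 to 1824 CPM in MIT-Empty.

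The number of the 45 that passed depended on single libraries. Leaving out each library in turn gave 10 to 18 genes lower and 0 higher, against 1.26% to 3.39% of all genes lower; the count was 10 without MIT-BATF replicate 2, 10 without MIT-BATF replicate 4, and 11 without each of MIT-Empty replicates 2, 4 and 5. In all 10 of these fits the same 9 genes passed (Cenpa, Cenpk, Mad2l1, Ttk, Spc25, Ccnb2, Ccna2, Ube2c and Top2a). The share of all genes that passed in all 10 is not given, so that this count has no background. A fit that left out a library of a sharing pair kept its partner, and cannot show stability to that pair. Of these genes, only Cenpa, Ttk, Ccnb2 and Ube2c passed the edgeR test with shared reads counted once.

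Other genes of the same machinery, from lists by function, had smaller median differences. Beside the counts below, 2.43% of all genes tested passed as lower and 2.16% as higher in MIT-BATF. With shared reads counted once these shares were 0.683% and 0.575%. Of 32 other kinetochore and checkpoint genes, 3 fell in MIT-BATF and 0 rose, with a median log2 fold change of -0.39. They were Cenpp, an inner kinetochore subunit (8.55 ± 1.32 CPM in MIT-BATF, against 20.3 ± 2.67 CPM in MIT-Empty, SD over 5 libraries a group; log2 fold change -1.25, edgeR adjusted p = 0.00101), Sgo2a, a shugoshin, and Ska2, a SKA complex subunit (log2 fold changes -1.10 and -0.90). Cenpp alone of the 32 passed with shared reads counted once. Of 40 other spindle and cytokinesis genes, 4 fell and 0 rose (median -0.46): Plk2, a kinase of centriole duplication (-1.66), Mastl, the Greatwall kinase that keeps mitotic phosphorylation in place (-1.45), Tacc3, a kinetochore fibre protein (-0.82), and Haus1, an augmin subunit (-0.80). Of 22 genes of condensin, cohesin and chromosome structure, 4 fell and 0 rose (median -0.31), namely Smc4, the condensin ATPase subunit (114 ± 7.94 CPM in MIT-BATF, against 190 ± 15.5 CPM in MIT-Empty, SD over 5 libraries a group; log2 fold change -0.74, edgeR adjusted p = 0.00346), Cdca5 (sororin, -1.16), Esco2 (a cohesin acetyltransferase, -0.85) and Cbx5 (HP1 alpha, -0.57). With shared reads counted once, 2 of the 40 and 0 of the 22 passed the edgeR test, where 6 of the 22 had an unadjusted p under 0.05 and DESeq2 called 3.

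The APC/C itself and a list made up mostly of cell cycle transcription factors had medians closer to 0. Of 18 APC/C subunits and regulators, 0 passed edgeR's test, 2 had an unadjusted p under 0.05 (lower in MIT-BATF) and DESeq2 called 0, with a median log2 fold change of -0.11. A list of 31 genes held mostly cell cycle transcription factors, among them Foxm1, Mybl2 and the E2F genes, with few kinases and phosphatases of mitotic entry. Of the 31, 0 passed edgeR's test, 0 had an unadjusted p under 0.05 and DESeq2 called 0, with a median of -0.02. Its entry kinases and phosphatases were at -0.90 (Cdc25c), -0.37 (Cdc25b), -0.06 (Wee1), 0.02 (Pkmyt1) and 0.21 (Cdc25a). As 2.43% of all genes tested passed as lower in MIT-BATF, 0 calls in 18 or 31 genes do not set a list apart. Of 36 measured genes of G1, S phase and the CDK inhibitors, 4 fell (Ccne1, the gene of cyclin E1, at -0.94; Tk1, thymidine kinase, at -0.68; Tyms, thymidylate synthase, at -0.63; and Rrm1, a ribonucleotide reductase subunit, at -0.54) and 2 rose. Those were the antiproliferative gene Btg1, at 519 ± 139 CPM in MIT-BATF, against 313 ± 13.9 CPM in MIT-Empty (SD over 5 libraries a group; log2 fold change 0.73, edgeR adjusted p = 0.0274), and Tsc22d3, the gene of the glucocorticoid-induced factor GILZ, at 72.7 ± 5.67 CPM in MIT-BATF, against 44.5 ± 3.24 CPM in MIT-Empty (log2 fold change 0.71, edgeR adjusted p = 0.00415). Tsc22d3 alone of the 6 passed with shared reads counted once.

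**Figure D5:**
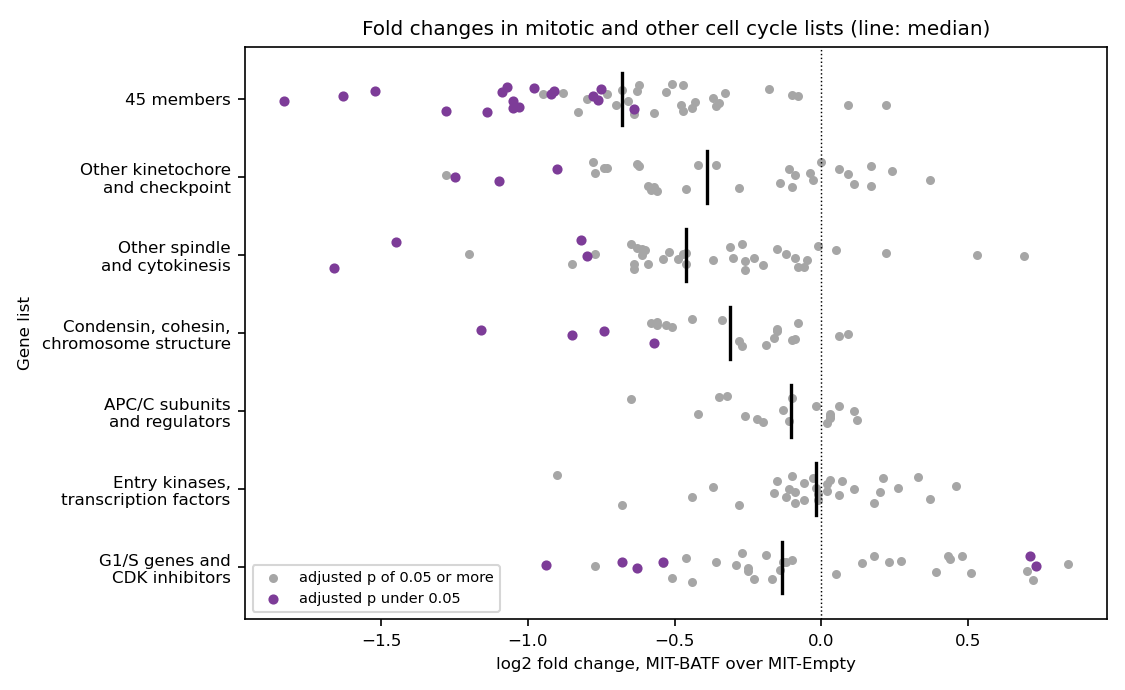
Each point is the edgeR log2 fold change of 1 gene, MIT-BATF over MIT-Empty, in the 45 genes and in 6 other lists; purple marks an adjusted p under 0.05 and the black line the median. The median is -0.68 for the 45 genes, -0.46 to -0.31 for the 3 lists of other mitotic structures, and -0.14 to -0.02 for the remaining 3.

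Late cell cycle genes are known to share promoter elements: the cell cycle genes homology region (CHR), bound by the DREAM and MuvB complexes, and CCAAT boxes bound by NF-Y. RefSeq promoter windows (GRCm38.p6, 250 bases before to 50 after the start) matched 37 of the 45 genes. A CHR (TTTGAA or TTCGAA, either strand) was found in 29 of the 37, or 78.4%, against 21.7% of 27025 genes in the table, and within 60 bases of the start in 70.3%, against 6.79%. CCAAT (either strand) was found in 78.4% against 41.1%, and within 60 bases of the start in 62.2% against 18%. A CHR was present in 10 of the 14 matched genes that fell and in 19 of the 23 other matched genes. The AP-1 motif TGANTCA (either strand) was in 0 of the 37, against 8.97% of all genes, which says only that these letters are absent from this window. Among the 8841 tested genes with a window, the shares were 17.1% for a CHR, 43.4% for CCAAT and 6.13% for the AP-1 motif. Neither motif overlapped the other in the windows shown. The windows below run from 110 bases before the start to 30 after it, on the gene's strand, with CHR and CCAAT matches (or their reverse complements TTCAAA and ATTGG) in capitals. They are shown for 7 genes that fell, picked as carrying both elements, and for Kif23 and Pttg1, which did not pass, as examples with and without them.
Cenpa, chr5:30666776-30666915, plus strand: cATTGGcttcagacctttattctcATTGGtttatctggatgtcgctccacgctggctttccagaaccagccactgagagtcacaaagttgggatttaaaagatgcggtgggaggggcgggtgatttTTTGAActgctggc
Ttk, chr9:83834579-83834718, plus strand: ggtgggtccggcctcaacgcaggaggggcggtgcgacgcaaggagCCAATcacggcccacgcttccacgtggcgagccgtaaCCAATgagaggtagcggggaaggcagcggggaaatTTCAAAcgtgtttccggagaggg
Ccnb2, chr9:70421525-70421664, minus strand: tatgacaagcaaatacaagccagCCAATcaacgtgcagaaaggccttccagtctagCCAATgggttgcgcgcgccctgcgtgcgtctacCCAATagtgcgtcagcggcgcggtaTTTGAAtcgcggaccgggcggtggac
Ube2c, chr2:164769819-164769958, plus strand: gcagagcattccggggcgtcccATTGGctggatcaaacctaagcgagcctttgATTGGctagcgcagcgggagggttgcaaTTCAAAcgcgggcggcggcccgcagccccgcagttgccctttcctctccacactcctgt
Spc25, chr2:69206184-69206323, minus strand: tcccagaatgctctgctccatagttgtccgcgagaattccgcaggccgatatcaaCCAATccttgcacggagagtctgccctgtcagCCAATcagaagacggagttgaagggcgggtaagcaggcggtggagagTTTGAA
Cdk1, chr10:69352883-69353022, minus strand: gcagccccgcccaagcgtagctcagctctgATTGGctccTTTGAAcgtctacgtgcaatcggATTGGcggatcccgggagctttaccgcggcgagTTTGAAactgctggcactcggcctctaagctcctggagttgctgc
Top2a, chr11:99024160-99024299, minus strand: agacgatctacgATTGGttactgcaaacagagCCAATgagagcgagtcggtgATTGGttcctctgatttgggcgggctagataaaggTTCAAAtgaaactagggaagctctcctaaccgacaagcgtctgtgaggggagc
Kif23, chr9:61946770-61946909, minus strand: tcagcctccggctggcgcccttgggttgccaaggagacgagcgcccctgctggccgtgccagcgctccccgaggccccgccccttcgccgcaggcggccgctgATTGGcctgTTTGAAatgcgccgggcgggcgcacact
Pttg1, chr11:43425952-43426091, minus strand: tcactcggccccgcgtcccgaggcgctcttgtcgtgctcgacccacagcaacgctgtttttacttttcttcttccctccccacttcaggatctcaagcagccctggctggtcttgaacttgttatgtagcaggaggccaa

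The 7 are not typical of all genes that fell. Of the 14 matched, 10 had a CHR and 11 a CCAAT box in the whole window: Mad2l1 and Nusap1 had neither, Ccnb1 and Cenpk had no CHR, and Ndc80 had no CCAAT box. A CHR was found both in genes that fell and in genes that did not pass, such as Kif23.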

How the data were processed

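RNA of 10 tumor T cell libraries (5 MIT-BATF, 5 MIT-Empty) was read as 37 bp paired reads. The authors quantified transcripts with Salmon (version not given in the sources used here; mm10 per the submitters' notes), and the deposited files hold estimated counts and TPM per transcript. Both were summed per gene by GENCODE vM21 (305 of 112092 transcripts unmatched), and the counts rounded. edgeR 4.0.16 (TMM, filterByExpr, quasi-likelihood test, Benjamini-Hochberg over 11781 genes, 95% intervals) was the test, and DESeq2 1.42.0 an alternative. CPM used TMM-scaled library sizes. As replicates 4 and 5 lie within replicates 2 and 3, each contained library was subtracted from its container in a second fit of 11129 genes. P-values measure the spread between these libraries, which may be partly technical. With the counts as deposited, libraries that share counts enter as independent, so that this spread can be understated and the p-values too small. The scripts were tested on simulated data with independent libraries, which cannot show how the test behaves where libraries share counts. Promoters came from RefSeq (GRCm38.p6). Per-library values are given for the 14 members past the threshold with the smallest p, for the member of each role with the highest mean TPM, and for the most positive and most negative fold changes. From each other list, at most 4 genes that passed by smallest p are named, and any that passed against the list's majority. The members and lists were chosen with earlier results of these data known. Other settings tried were RLE size factors, other filters, transcript length offsets, omission of mitochondrial genes, a replicate block, and leaving out libraries.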

Additional observations from a re-analysis of the deposited data

Results flagged for a closer look

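In 104 groups of 5 library values (the 45 genes, list sums and library measures in each group), 6 had an extreme library farther from the nearest other than Dixon's 95% critical value of 0.71 of the range allows; chance gives about 1 in 20 groups. Spc25 was at 5.88 CPM in MIT-BATF replicate 1, with the next library at 13 CPM. The same library had a mitochondrial share of 33.2%, with the next at 15.1%. Mad2l1 was at 103 CPM in MIT-BATF replicate 5, with the next at 66.4 CPM, and Espl1 was at 1.08 CPM in MIT-BATF replicate 4, with the next at 2.39 CPM. In MIT-Empty, Cenpf was at 22.5 CPM in replicate 4, the library with the most melanocyte RNA (1824 CPM over 9 markers), with the next at 15.1 CPM, and Dlgap5 was at 5.02 CPM in replicate 1, with the next at 9.71 CPM. The part of library composition in these values was not tested.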

How the results depend on the processing

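The count of calls depended on the processing. The median log2 fold change of the 45 genes stayed between -0.79 and -0.60, and the ratio of summed CPM between 0.56 and 0.624, in every setting run, and 0 of the 45 were higher in any. Genes of the 45 lower in MIT-BATF numbered 17 as reported, 4 with shared reads counted once (9 with DESeq2), 3 without the contained libraries, 0 without the containing libraries and 7 without MIT-Empty replicates 2 and 4, and 10 to 18 when each library was left out. Those with no overlap between groups numbered 14, and 9 with shared reads counted once. Over all genes, 286 were lower and 254 higher as reported; these became 480 and 436 with DESeq2, 76 and 64 with shared reads counted once (146 and 147 with DESeq2), 59 and 37 without the contained libraries, 8 and 7 without the containing ones, 132 and 127 without MIT-Empty replicates 2 and 4, and 147 to 420 and 140 to 352 when each library was left out; without a filter 546 were lower. The labels do not say whether same-numbered libraries were paired, and the main fit did not pair them. Their correlations of deviations were -0.05 to 0.22, and replicates 1 and 3 correlated best with their own number, which does not settle the question. A replicate block gave 18 of the 45 lower with a median of -0.70, beside -0.01 over all genes. The share of all genes lower in that fit is not given, so that the 18 have no background. Signs turned only for estimates near 0: Cenpn (-0.20 to 0.07 when each library was left out), Kif2c (0.03 without the containing libraries) and Pttg1 (-0.03 with shared reads counted once, by either tool, -0.06 without the contained libraries and, when MIT-BATF replicate 5 was left out, -0.09). The cause of these shifts was not tested, beyond the smaller number of libraries or reads in each. Depth limits the sparse genes: Plk1 had a 95% interval of -1.68 to 0.99.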

Other observations

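A few genes listed as markers of other immune cells passed the test, in both directions. Xcr1, a chemokine receptor of cross-presenting dendritic cells, was at 7.99, 9.85, 11.3, 14.5 and 13.2 CPM in MIT-BATF and at 3.8, 3.3, 2.01, 2.75 and 1.91 CPM in MIT-Empty, without overlap (log2 fold change 2.06, edgeR adjusted p = 0.00067). Itgax (CD11c) averaged 4.14 ± 1.2 CPM in MIT-BATF, against 1.18 ± 0.759 CPM in MIT-Empty (SD over 5 libraries a group; log2 fold change 1.84, edgeR adjusted p = 0.0268). Zbtb46, a transcription factor of conventional dendritic cells and the remaining gene measured from that list, had the opposite sign and did not pass, at 5.96 ± 2.3 CPM in MIT-BATF, against 9.53 ± 2.33 CPM in MIT-Empty (log2 fold change -0.70, edgeR adjusted p = 0.239). Of the B cell markers, Cd79b was higher (log2 fold change 1.79, edgeR adjusted p = 0.0175) and Ighm lower in MIT-BATF, at 43.5 ± 8.15 CPM against 109 ± 36.8 CPM in MIT-Empty (log2 fold change -1.32, edgeR adjusted p = 0.00315), while Ms4a1 and Cd79a, genes that define B cells, were at 0 to 0.245 CPM in all 10 libraries. In the fit that counts shared reads once, Xcr1 and Ighm passed edgeR's test (adjusted p = 0.00884 and 0.0131), and Itgax and Cd79b did not (adjusted p = 0.193 and 0.128). Of the 4 NK and CD4+ T cell markers only Klrb1c had enough counts to be tested, and it did not pass (log2 fold change 1.44, edgeR adjusted p = 0.142).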
